A study of Homo sapiens with 4 samples.

Results

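WIPF3, C1orf105 and PRR32 are 3 genes of 39323 in the expression tables of RD and JR1 cells. They were picked as the little-studied genes among the 10 largest rises shared by both lines when SKP2 was depleted, so their changes in these libraries are the values that chose them. The rises are therefore given as a description, with no test. WIPF3 lies on chromosome 7 from base 29806508 to base 29917065, C1orf105 on chromosome 1 from base 172418560 to base 172468829, and PRR32 on chromosome X from base 126819729 to base 126821786 (GRCh38, as in the tables).

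RD and JR1 are established lines of fusion-negative rhabdomyosarcoma (FN-RMS), a tumor of cells committed to skeletal muscle that lacks a PAX3 or PAX7 fusion to FOXO1. The study knocked down SKP2, the substrate-recognition subunit of an SCF ubiquitin ligase, to ask which transcripts change when a protein that keeps these cells cycling is removed. In each line 1 library came from cells carrying a lentiviral shRNA against SKP2 (shSKP2.2) and 1 from cells carrying a non-targeting shRNA (shSCR). The labels give the genotypes as SKP2 knockdown and WT, all cells were grown in DMEM with fetal bovine serum, and untransduced cells were not analysed here. All shSKP2.2 values come from 1 hairpin and 1 library per line, so differences between conditions could not be set against replicates, and neither errors nor p-values are given. These are bulk libraries, in which fewer cells of a type and less RNA per cell cannot be told apart.

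WIPF3 encodes a member of the verprolin family (WIPF1 to WIPF3). These proline-rich proteins bind actin and hold WAS and WASL (N-WASP), which switch on the ARP2/3 complex to grow branched actin filaments, and WIPF3 has been studied mainly in brain and testis. C1orf105 is named only for its open reading frame on chromosome 1, and PRR32 only for its proline-rich protein, and no role was assigned to either here. Skeletal muscle genes are commonly switched on by MYOD and MYOG, which bind E-boxes (CANNTG), together with MEF2 factors, TEAD factors (at the MCAT element CATTCC) and SRF (at the CArG box).

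The 250 bases before the start site of each gene are shown because they let the 3 promoters be compared directly. The sequences are those of RefSeq (GRCh38), each on the plus strand, which is the strand of all 3 genes, and all 3 genes were matched by symbol. Capitals mark the letters CANNTG and CATTCC. The windows are chr7:29806258-29806507 for WIPF3, chr1:172452643-172452892 for C1orf105 and chrX:126819479-126819728 for PRR32.
WIPF3: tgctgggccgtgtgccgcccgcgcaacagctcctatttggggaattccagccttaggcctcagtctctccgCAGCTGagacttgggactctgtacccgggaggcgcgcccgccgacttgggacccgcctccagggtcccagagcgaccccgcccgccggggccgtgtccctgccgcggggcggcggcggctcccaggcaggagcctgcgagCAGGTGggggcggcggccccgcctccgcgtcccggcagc
C1orf105: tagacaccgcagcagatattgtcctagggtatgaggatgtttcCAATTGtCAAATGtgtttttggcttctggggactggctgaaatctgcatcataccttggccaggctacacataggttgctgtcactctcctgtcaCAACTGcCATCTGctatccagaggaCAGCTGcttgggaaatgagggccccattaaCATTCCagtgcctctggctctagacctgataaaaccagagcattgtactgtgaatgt
PRR32: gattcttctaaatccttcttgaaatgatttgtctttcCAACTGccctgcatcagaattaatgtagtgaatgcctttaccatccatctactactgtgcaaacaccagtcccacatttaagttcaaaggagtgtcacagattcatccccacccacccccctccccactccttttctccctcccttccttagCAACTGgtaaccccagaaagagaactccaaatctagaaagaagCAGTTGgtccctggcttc

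The promoters differed in base composition. The WIPF3 window had a GC content of 75.2% and 28 CpG, and 89.9% of 35116 RefSeq windows of the same length had a lower GC content. The C1orf105 window had a GC content of 48.0% and 1 CpG, and the PRR32 window a GC content of 45.6% and 0 CpG, against medians of 58% and 11 over all windows. WIPF3 thus stood on the GC-rich side of the RefSeq promoters, and the other two stood below the median.

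Letters were searched on both strands, and CAGCTG and CAGGTG, the forms that MYOD and MYOG are best known for, are kinds of CANNTG. The WIPF3 window held 2 matches of CANNTG, with CAGCTG at bases -179 to -174 from the start and CAGGTG at -39 to -34. The C1orf105 window held 5, of which CAGCTG stood at -87 to -82, and it also held CATTCC at -57 to -52. PRR32 had 3 matches, CAACTG at -213 to -208 and again at -61 to -56 and CAGTTG at -18 to -13, and neither CAGCTG nor CAGGTG. No window of the 3 genes held the MEF2 or CArG motif or TATAAA. Such letters are common. CANNTG was found in 61.8% of all windows, CAGCTG in 14.0%, CAGGTG in 17.5%, CATTCC in 11.9%, TATAAA in 10.7%, the MEF2 motif in 2.80% and the CArG motif in 1.16%. The 10 largest shared rises, the 3 genes among them, had 16 windows, some being start sites of the same gene. Of these windows 13 held CANNTG, 4 CAGCTG, 3 CAGGTG, 4 CATTCC, 3 the MEF2 motif, 3 the CArG motif and 3 TATAAA. Counted by gene, a match stood in 9 for CANNTG, 3 for CAGCTG, 3 for CAGGTG, 4 for CATTCC, 3 for the MEF2 motif, 2 for the CArG motif and 3 for TATAAA. These few genes were chosen on these data, and their counts were not tested against the shares of all windows.

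C1orf105 has more than 1 start site. GENCODE release 44 lists 5 transcripts, and the canonical one starts at base 172420685, 32208 bases before the start at base 172452893 to which the RefSeq window belongs. The 250 bases before the outer start (chr1:172420435-172420684) had a GC content of 34.4% and 1 match of CANNTG, the letters CACATG at -117 to -112. The tables give 1 value per gene, so the start sites in use cannot be told apart. WIPF3 has 2 listed transcripts, of which the canonical one has 9 exons, and PRR32 has 1 transcript of 2 exons that spans 2058 bases.

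The 4 libraries were given as TPM (transcript abundance after division by length and by the library's total), which are scaled for transcript length, so levels may be set side by side between genes of a library. SKP2 itself went in RD from 92.84 to 7.40 TPM and in JR1 from 46.47 to 2.72 TPM. Genes above 0 TPM numbered 21453 to 22645 per library. Short structural RNAs, such as the signal recognition particle RNA, held 50.1% (shSCR) and 62.3% (shSKP2.2) of the RD totals, and 57.1% and 64.9% of those of JR1, which lowers the TPM of other genes in the shSKP2.2 libraries. A gene was called expressed when its mean over the 4 libraries was at least 1 TPM, which held for 12985 genes and for all 3 members. Its change within a line was taken between the log2 values of TPM + 1, shSKP2.2 minus shSCR. The median change of the expressed genes was -0.27 in RD and -0.21 in JR1.

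WIPF3 was close to silent in both control libraries and clearly present in both knockdown libraries. It stood at 0.48 TPM in RD shSCR, 7.48 TPM in RD shSKP2.2, 0.30 TPM in JR1 shSCR and 17.48 TPM in JR1 shSKP2.2. In RD shSCR 32.2% of the genes above 0 TPM were lower than WIPF3, and in RD shSKP2.2 68.8% were. In JR1 these shares were 29.6% and 84.9%. WIPF3 thus moved from the lower part of the detected genes to the upper part, further in JR1 than in RD.

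C1orf105 had the highest level of the 3 genes in every library. It stood at 3.08 TPM in RD shSCR, 18.39 TPM in RD shSKP2.2, 6.86 TPM in JR1 shSCR and 51.12 TPM in JR1 shSKP2.2. The JR1 shSKP2.2 library, in which 95.5% of the detected genes were lower, had the highest value of C1orf105, and the RD shSCR library the lowest.

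PRR32 was the one of the 3 that stood higher in RD than in JR1 under both hairpins. Its levels were 1.98 TPM in RD shSCR, 16.46 TPM in RD shSKP2.2, 1.37 TPM in JR1 shSCR and 7.23 TPM in JR1 shSKP2.2. Both shSKP2.2 libraries were above both shSCR libraries, as they were for WIPF3 and C1orf105.

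**Figure D1:**
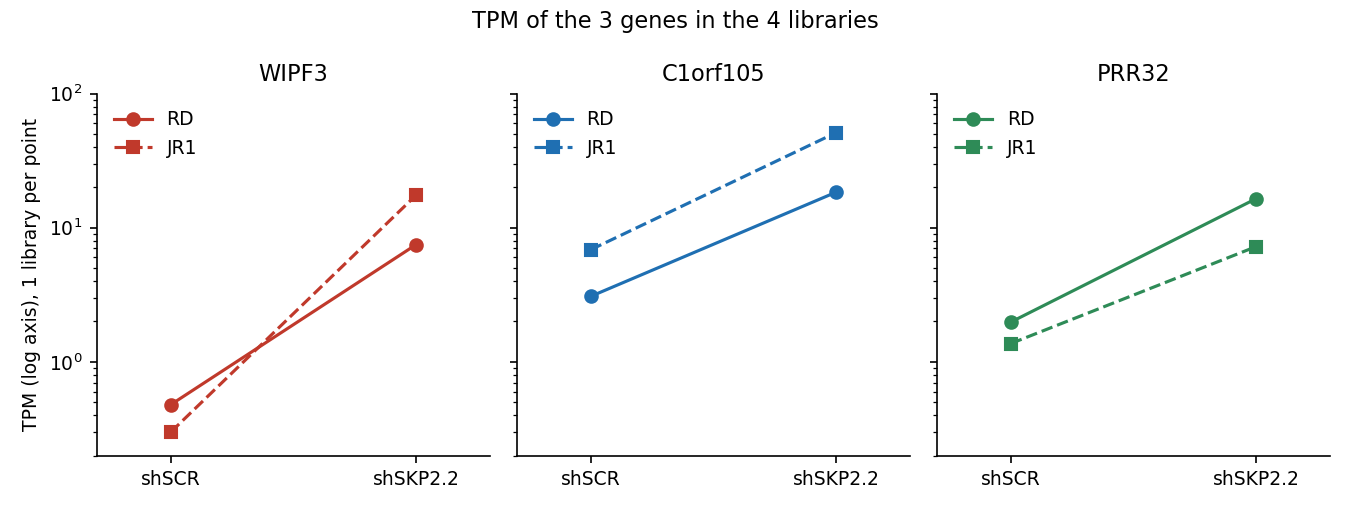
TPM of WIPF3, C1orf105 and PRR32 (log axis) in shSCR and shSKP2.2 cells, with RD as circles and solid lines and JR1 as squares and dashed lines. Each point is 1 library, there are no error bars, and the shSKP2.2 point is the higher one for each gene and line, the steepest line being that of WIPF3 in JR1, from 0.30 to 17.48 TPM.

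On the log2 scale of TPM + 1, WIPF3 rose by 2.52 in RD and 3.83 in JR1, C1orf105 by 2.25 and 2.73, and PRR32 by 2.55 and 1.80. The ratio of the deposited TPM was 15.6 in RD and 58.3 in JR1 for WIPF3, 5.97 and 7.45 for C1orf105, and 8.31 and 5.28 for PRR32. In absolute terms the order was another one. C1orf105 gained the most TPM in both lines, 15.3 in RD and 44.3 in JR1, while WIPF3 gained 7.0 and 17.2 and PRR32 14.5 and 5.86. The ratio of WIPF3 was large beside a control level below 1 TPM, and adding 0.1 TPM in place of 1 gave it 3.71 (RD) and 5.46 (JR1) on the log2 scale.

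All 3 genes passed the limit of 1 on the log2 scale in both lines. Over all expressed genes 1.08% rose past that limit in RD, 1.78% in JR1 and 0.539% in both. Falls past it were more frequent, 7.37% in RD, 9.05% in JR1 and 4.79% in both. Since the genes were chosen on these changes, nothing is read from their count against these shares. Relative to the median of the expressed genes, the changes were 2.79 and 4.04 for WIPF3, 2.52 and 2.94 for C1orf105, and 2.82 and 2.01 for PRR32, in RD and JR1 in turn.

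Genes were ranked by the smaller of their changes in RD and JR1, leaving out short structural RNA genes. WIPF3 took rank 2, C1orf105 rank 6 and PRR32 rank 9. The other 7 of the 10 were MYL1, TTN and MYOM1, which encode parts of the sarcomere, LDB3 of its Z-disc, SMYD1, a methyltransferase of myosin assembly, HSPB3, a small heat shock protein of muscle, and HDAC9, a deacetylase that represses MEF2 factors. HDAC9 was the last inside at 1.73, and UNC45B, a myosin chaperone, was the first outside at 1.72. Adding 0.1 TPM in place of 1 moved C1orf105 to rank 13 and PRR32 to rank 20, and WIPF3 kept a rank from 2 to 3 under every alternative tried. Rescaling without the short structural RNA genes moved C1orf105 to rank 7 and PRR32 to rank 11. With RMRP and RPPH1 removed as well, PRR32 stood at rank 12.

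**Figure D2:**
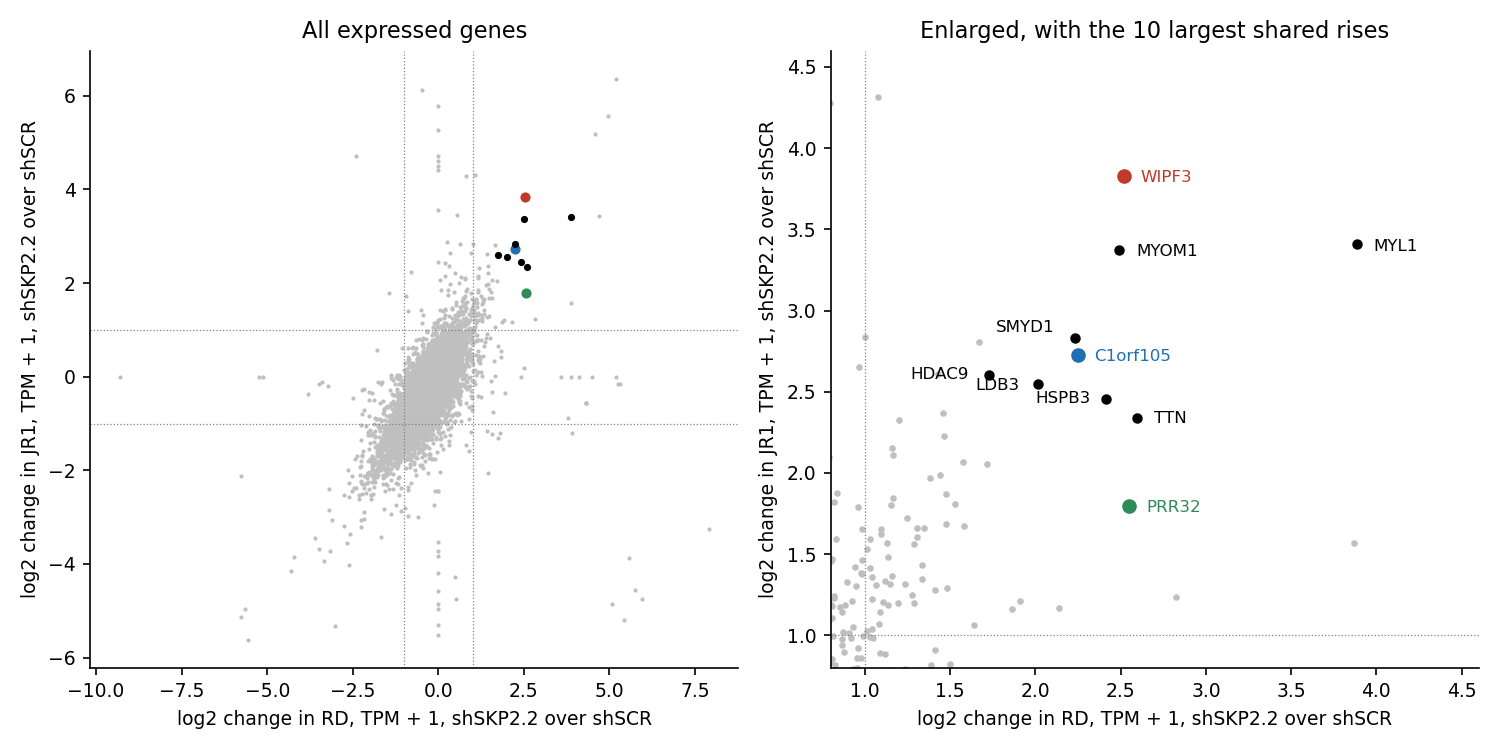
Change of each of the 12985 expressed genes (gray points) in RD (horizontal) and JR1 (vertical), as log2 of TPM + 1 in shSKP2.2 over shSCR, whole (left) and enlarged (right), with dotted lines at the limit of 1 in each direction. The 10 largest shared rises are black or coloured, and WIPF3 lies above C1orf105 and PRR32 in JR1, at 3.83 against 2.73 and 1.80. Gray points farther out in the upper right are short structural RNA genes, which were left out of the ranking.

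The lines differed in level most for C1orf105, and in the size of the change most for WIPF3 and PRR32, in opposite directions. Under shSCR the level of WIPF3 in JR1 was -0.19 relative to RD on the log2 scale of TPM + 1, and under shSKP2.2 it was 1.12. For PRR32 the same differences were -0.33 and -1.09, and for C1orf105 0.95 and 1.43. The ratio of the higher to the lower line was thus larger under shSKP2.2 for all 3 genes, at 1.60 and then 2.34 for WIPF3, 2.23 and then 2.78 for C1orf105, and 1.45 and then 2.28 for PRR32. The change in JR1 minus that in RD was 1.31 for WIPF3, a size that 1.33% of the expressed genes reached in either direction. It was -0.75 for PRR32, reached by 5.97%, and 0.48 for C1orf105, reached by 17.3%. Over all expressed genes this difference had a median of 0.06 and ran from -0.61 at the 5th to 0.62 at the 95th percentile. With 1 library per line and condition it was not tested. Most expressed genes changed far less than these 3, which were chosen for large changes and so have more room to differ between lines. The shares therefore do not show that the 3 are unusual among large rises.

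The order of levels was C1orf105, PRR32 and WIPF3 in both shSCR libraries and in RD shSKP2.2. In JR1 shSKP2.2 it was C1orf105, WIPF3 and PRR32, so WIPF3 passed PRR32 there. Whether neighbours in this order differ beyond the spread between replicates cannot be given.

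The genes nearest to C1orf105 in profile were muscle genes that are themselves among the 10 largest shared rises. Genes picked for large rises in both lines lie near each other, and far from most genes, by that choice alone. Likeness was measured as the root mean square difference of log2(TPM + 1), each gene centred on its own mean over the 4 libraries. The nearest genes to C1orf105 were HSPB3 at 0.12, SMYD1 at 0.12 and LDB3 at 0.13, where the median over all expressed genes was 1.55. Of these HSPB3 went in RD from 1.07 to 10.03 TPM and in JR1 from 3.93 to 26.02 TPM, with the same order of the 4 libraries as C1orf105. The genes nearest to WIPF3 were MYOM1 at 0.39, C1orf105 at 0.54 and TTN at 0.55, against a median of 1.78. MYOM1, which encodes myomesin of the M-band, went in RD from 0.32 to 6.43 TPM and in JR1 from 1.21 to 21.89 TPM. Unlike MYOM1, WIPF3 was no higher in JR1 shSCR than in RD shSCR.

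PRR32 had other companions. Its nearest genes were KRTAP2-3 at 0.35, MMP15 at 0.42 and CD36 at 0.44, against a median of 1.27. KRTAP2-3, a hair keratin-associated gene with near-identical relatives that makes its values uncertain, went in RD from 4.17 to 21.76 TPM and in JR1 from 2.22 to 6.25 TPM. MMP15, a membrane-type matrix metalloproteinase, went from 1.24 to 5.24 TPM and from 0.63 to 4.25 TPM. CD36, a fatty acid receptor, went from 0.26 to 2.93 TPM and from 0.17 to 1.45 TPM. All 3 were higher in RD shSKP2.2 than in JR1 shSKP2.2, as was PRR32. These likenesses rest on 4 libraries and on the contrast by which WIPF3, C1orf105 and PRR32 were chosen, and they are a description.

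**Figure D3:**
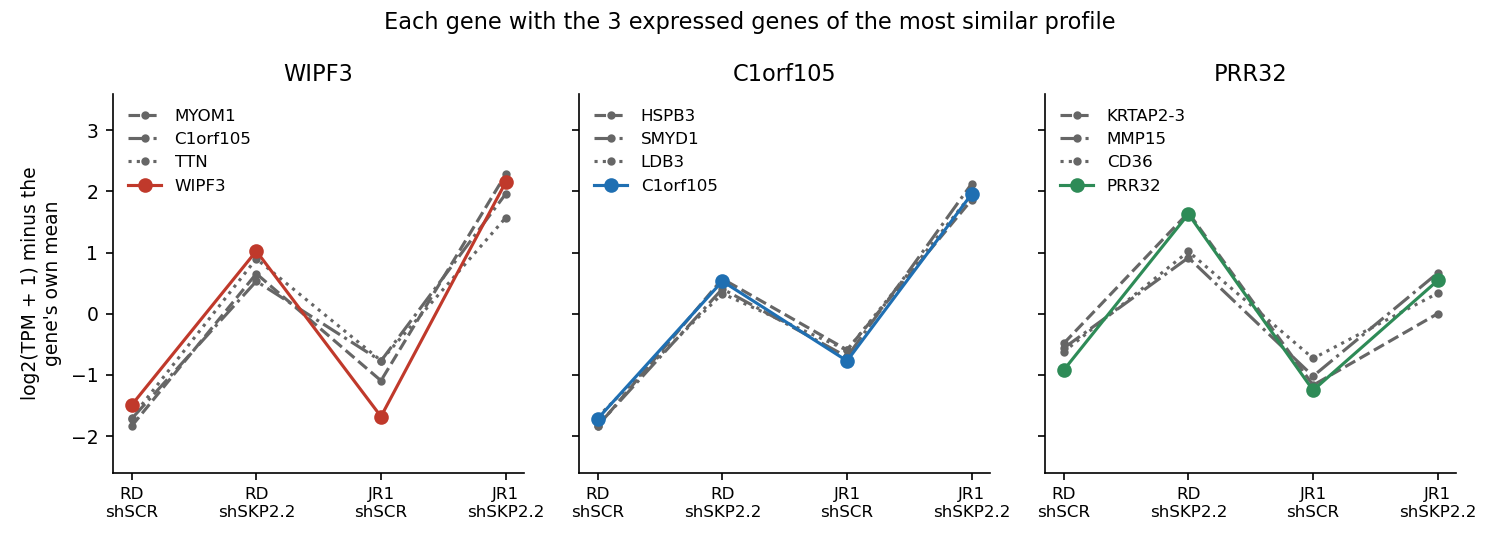
Profiles over the 4 libraries of WIPF3, C1orf105 and PRR32 (coloured) and of the 3 expressed genes most like each (gray), as log2(TPM + 1) minus the gene's own mean over the libraries. HSPB3, SMYD1 and LDB3 lie almost on the line of C1orf105, at distances of 0.12 to 0.13, while the companions of PRR32 are highest in RD shSKP2.2.

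Among the verprolins, WIPF3 was the member that rose past the limit in both lines. WIPF1 stood at 12.02 TPM in RD shSCR, 9.41 TPM in RD shSKP2.2, 13.16 TPM in JR1 shSCR and 26.59 TPM in JR1 shSKP2.2, changes of -0.32 and 0.96. WIPF2 stood at 9.26, 6.52, 6.99 and 6.08 TPM in the same order, with changes of -0.45 and -0.17. After removal of the short structural RNA genes the change of WIPF1 in RD was 0.05 and that of WIPF2 in JR1 was 0.08, so those directions depended on the scaling, while that of WIPF1 in JR1 was 1.28 and passed the limit. As a share of the TPM of WIPF1 to WIPF3, WIPF3 went from 2.21% to 32.0% in RD and from 1.47% to 34.9% in JR1. The summed TPM of the family was 21.76 and 23.41 in RD, and 20.45 and 50.15 in JR1. The family total was thus near level in RD and higher with shSKP2.2 in JR1, where both WIPF1 and WIPF3 were higher.

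The partner of the verprolins that these cells expressed was WASL, at 10.54 and 7.42 TPM in RD and 8.71 and 6.29 TPM in JR1. Its changes were -0.45 and -0.41. WAS, the family member of blood cells, was listed at 0.12 to 0.26 TPM in the 4 libraries. WIPF3 was below WASL in both shSCR libraries, close to it in RD shSKP2.2 and above it in JR1 shSKP2.2.

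Most other genes of actin assembly stayed within the limit. The 6 lists written from general knowledge (verprolins and WASP, WAVE complex, ARP2/3 complex, upstream adaptors of N-WASP, monomer binders, other nucleators) held 72 genes, of which 64 were expressed. In RD 2 rose and 3 fell, and in JR1 4 rose and 4 fell, where over all expressed genes 1.08% rose and 7.37% fell in RD and 1.78% rose and 9.05% fell in JR1. After removal of the short structural RNA genes 4 of the 64 rose and 0 fell in RD, and 5 rose and 2 fell in JR1. The rises over all genes also grew with that removal, to 554 in RD and 694 in JR1 of 14739 expressed genes. The shift toward rises was thus not particular to these lists, and nothing is read from their counts. Without WIPF3 the median change of the 63 others was -0.27 in RD and -0.14 in JR1, near the medians of all expressed genes. After that removal it was 0.11 and 0.13, so its sign changed as well.

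ARPC3, a subunit of the ARP2/3 complex, was the other gene of these lists that rose in both lines before that removal. It went in RD from 33.86 to 70.27 TPM and in JR1 from 25.11 to 77.64 TPM, changes of 1.03 and 1.59. The ARP2/3 list had 10 expressed genes of 10, with median changes of -0.34 and -0.12. Its ARPC1B went from 75.39 to 37.58 TPM in RD (-0.99) and fell in JR1 from 203.46 to 84.88 TPM (-1.25). Of the 8 expressed genes of the WAVE complex none rose or fell, and their median changes were -0.31 and -0.17. They ran from -0.61 for WASF2 to 0.28 for BRK1 in RD and from -0.47 for WASF3 to 0.39 for BRK1 in JR1.

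Of the 15 adaptors upstream of N-WASP, all expressed, TRIP10 and NCK1 fell in RD, and TRIP10 fell and DNMBP rose in JR1. TRIP10, a membrane-bending partner of CDC42, went in RD from 21.05 to 9.37 TPM and in JR1 from 16.16 to 5.03 TPM, changes of -1.09 and -1.51. DNMBP, an exchange factor for CDC42, had changes of 0.22 and 1.14. The 9 monomer binders (profilins, cofilins and others) held no rise or fall, with median changes of -0.29 and -0.11 and a range from -0.69 for TMSB4X to 0.18 for CFL2 in RD and from -0.38 for TMSB4X to 0.59 for CAP2 in JR1. Of the other nucleators 18 of 22 were expressed, with median changes of -0.30 and -0.32. LMOD3, a leiomodin of muscle thin filaments, rose in JR1, from 0.95 to 3.98 TPM (1.35), and went from 0.51 to 1.33 TPM in RD (0.63). FMNL1, another formin, went from 1.62 to 0.46 TPM in RD (-0.84) and fell in JR1 from 2.81 to 0.90 TPM (-1.0). DAAM2, a formin, fell in both lines (-1.08 in each), in RD from 25.07 to 11.36 TPM and in JR1 from 12.64 to 5.47 TPM. After removal of the short structural RNA genes the changes were -0.74 and -1.34 for TRIP10, -0.72 and -0.88 for DAAM2, -0.97 in JR1 for ARPC1B, -0.76 in RD for NCK1 and -1.08 in JR1 for FMNL1, so of these falls those of TRIP10 and FMNL1 in JR1 still passed the limit. On that scale ARPC3 rose by 1.44 and 1.90 and LMOD3 by 1.16 and 1.94.

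**Figure D4:**
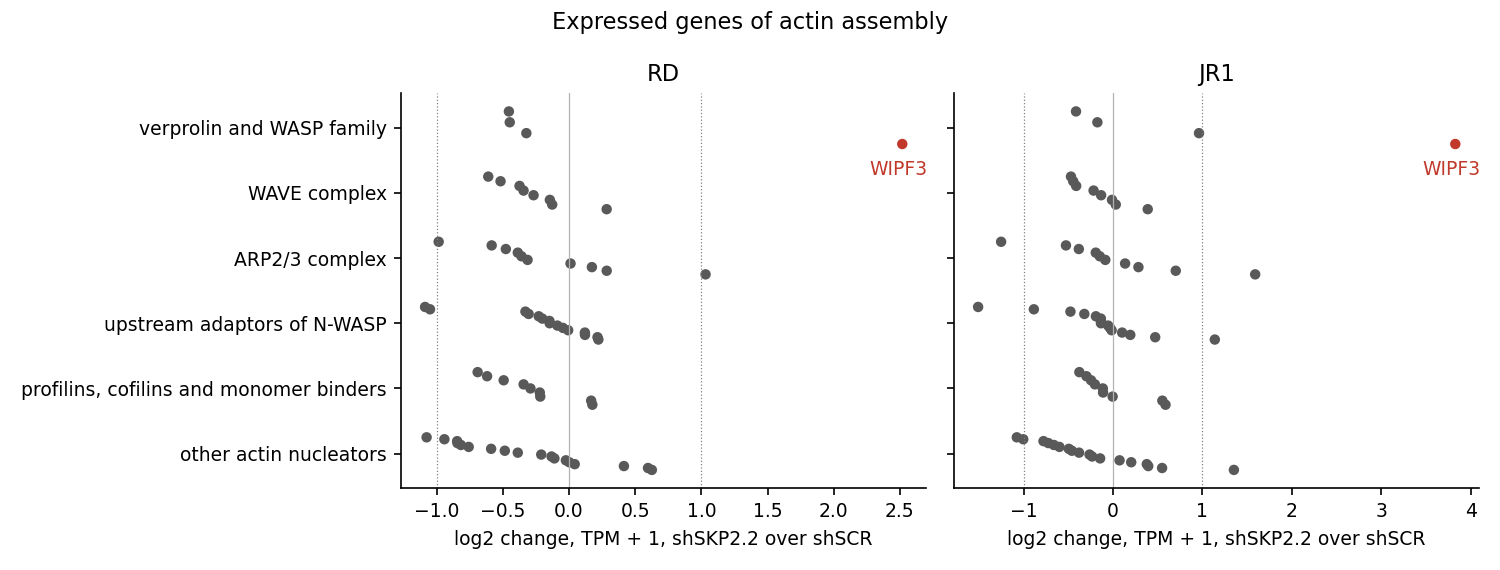
Change of each expressed gene (points) of the 6 lists of actin assembly in RD (left) and JR1 (right), as log2 of TPM + 1 in shSKP2.2 over shSCR, with dotted lines at the limit of 1 in each direction; the horizontal scales differ. WIPF3 (red), at 2.52 and 3.83, lies to the right of the 63 other genes, the next of which is ARPC3 at 1.03 and 1.59.

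Genes with names like those of C1orf105 and PRR32 were set beside them. Of 294 genes whose symbol is that of an open reading frame and ends in its number, 130 were expressed and 152 were above 1 TPM in none of the 4 libraries. C1orf105, chosen for its rise, was the only one that rose in either line, and 6 fell in RD and 4 in JR1. Over all expressed genes 1.08% rose and 7.37% fell in RD, and 1.78% rose and 9.05% fell in JR1. Nothing is read from the counts of these lists. The median changes of the list were -0.24 and -0.19, against -0.27 and -0.21 over all expressed genes. CXorf49B, which ends in a letter and so was not in this list, also rose in both lines, at 0 and 13.63 TPM in RD and 2.57 and 9.57 TPM in JR1, but it has a near-identical copy, CXorf49, and its values are uncertain. The lowest of the list were C11orf49 at -1.27 in RD and C1orf54 at -1.40 in JR1. Of 40 genes with a PRR symbol, 13 were expressed. PRR32, also chosen for its rise, was the only one that rose in either line. PRR11, a gene of dividing cells, was the lowest at -1.58 in RD and -1.45 in JR1. After removal of the short structural RNA genes 6 numbered open reading frames rose in RD and 8 in JR1, C1orf105 among them, and PRR32 was still the only PRR gene that did. On that scale 554 of all 14739 expressed genes rose in RD and 694 in JR1. Shared names say nothing of shared function.

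No expressed gene beside the 3 on the chromosome rose past the limit. Over all expressed genes 1.08% rose and 7.37% fell in RD, and 1.78% rose and 9.05% fell in JR1. With so few expressed neighbours, nothing is read from their counts. Within 500 kb of WIPF3 the tables list 21 genes, of which 9 were expressed. Their changes ran from -0.92 to 0.52 in RD and from -1.20 to 0.60 in JR1. The nearest on either side were the pseudogene DPY19L2P3, at 0.11 to 0.33 TPM in the 4 libraries, and SCRN1, which lies on the opposite strand 3038 bases beyond the end of WIPF3. SCRN1 stood at 119.98 and 100.84 TPM in RD and 103.27 and 97.08 TPM in JR1, changes of -0.25 and -0.09. FKBP14, an isomerase of the endoplasmic reticulum, and ZNRF2, a ubiquitin ligase, fell in JR1, with changes of -1.20 and -1.06, and had changes of -0.45 and -0.92 in RD. After removal of the short structural RNA genes their changes in JR1 were -0.97 and -0.86, inside the limit.

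C1orf105 shares its locus with other genes. PIGC, an enzyme of GPI anchor synthesis, lies within C1orf105 on the opposite strand, from base 172441457 to base 172444069. PIGC stood at 26.27 and 23.30 TPM in RD and 16.77 and 15.85 TPM in JR1, changes of -0.17 and -0.08 beside 2.25 and 2.73 for C1orf105. The noncoding LOC102724528, which also overlaps C1orf105, stood at 0.70 and 0.68 TPM in RD and 0.43 and 1.11 TPM in JR1, a change of 0.56 in JR1 that was 1.06 after removal of the short structural RNA genes. DNM3, a dynamin, ends 94 bases before the listed start of C1orf105 and stood at 0.75 and 0.53 TPM in RD and 0.67 and 0.24 TPM in JR1. On the other side SUCO went from 16.13 to 17.68 TPM and from 12.59 to 13.78 TPM. The libraries were directional, but the strand setting of the counting is not given in the sources used here, so reads of overlapping genes may have been shared out between them. Of 11 listed genes within 500 kb, 3 were expressed and none rose, and the noncoding DNM3OS fell in JR1 by 1.28 on the log2 scale, with a change of -0.39 in RD.

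PRR32 stands far from any expressed gene. The tables list 4 genes within 500 kb, of which the 3 noncoding genes were listed at 0 in all libraries. The fourth, DCAF12L1, 266915 bases away, did not exceed 0.01 TPM.

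**Figure D5:**
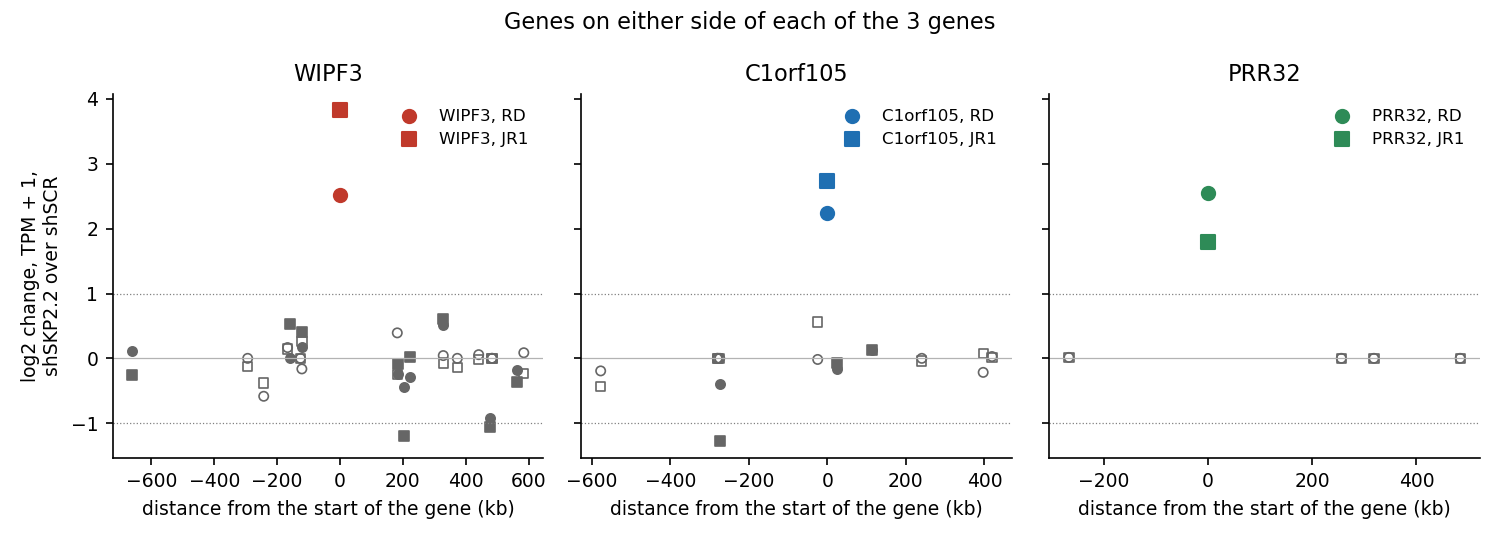
Change of each listed gene within 500 kb of WIPF3, C1orf105 and PRR32, as log2 of TPM + 1 in shSKP2.2 over shSCR. The horizontal axis is the distance in kb from the start of the coloured gene. Other genes are placed at their start, or at their lower coordinate where no strand was given. Circles are RD and squares are JR1. Filled gray symbols are expressed genes, open ones are genes below a mean of 1 TPM, and dotted lines mark the limit of 1. WIPF3, C1orf105 and PRR32 (coloured, at 0 kb) lie between 1.80 and 3.83, and no gene beside them exceeds 1.

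Markers of the labelled lineage were present in all libraries. MYOD1 stood at 86.98 and 93.84 TPM in RD and 100.64 and 131.08 TPM in JR1, and MYOG at 31.57 and 58.39 TPM in RD and 53.97 and 107.18 TPM in JR1. MYF5 was listed at 0 throughout and MYF6 did not exceed 0.50 TPM. Of 8 muscle markers 6 were expressed and none passed the limit, with median changes of 0.28 in RD and 0.38 in JR1. Over all expressed genes 1.08% rose and 7.37% fell in RD, and 1.78% rose and 9.05% fell in JR1, so nothing is read from that count. The changes of MYOG, 0.87 and 0.98, were the highest of them, and after removal of the short structural RNA genes they were 1.28 and 1.27. All 6 were higher with shSKP2.2 in RD, but in JR1 4 were higher and 2 lower, DES at 51.31 and 35.97 TPM (-0.50) and CHRNG at 8.04 and 7.57 TPM (-0.08). Without the short structural RNA genes DES had a change of -0.22 in JR1 and CHRNG one of 0.19. The summed TPM of the muscle markers was 404.55 and 573.06 in RD and 558.14 and 785.25 in JR1. The largest part of it was CHRNA1, a subunit of the muscle acetylcholine receptor, at 196.34 and 313.84 TPM in RD and 284.19 and 424.83 TPM in JR1. Without the short structural RNA genes CHRNA1 had a change of 1.08 in RD, past the limit, and of 0.87 in JR1. The part of these markers in the rises of WIPF3, C1orf105 and PRR32 was not tested.

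Few markers of the tissues in which WIPF3 is best known were expressed. Of 11 neuronal markers 3 were expressed and 7 were above 1 TPM in no library. Of the expressed ones, TUBB3 stood at 228.14 and 347.09 TPM in RD and 234.82 and 243.80 TPM in JR1, changes of 0.60 and 0.05. After removal of the short structural RNA genes these changes were 1.01, just past the limit, and 0.34. MAP2 stood at 14.75 to 16.71 TPM and SNAP25 at 0.93 to 2.17 TPM in the 4 libraries. SYP stood at 1.06 and 1.18 TPM in RD, and DCX went from 0.01 to 0.91 TPM in JR1. ELAVL3 did not exceed 0.05 TPM and STMN2 did not exceed 0.03 TPM. The summed TPM of the neuronal list, most of it from TUBB3, was 246.5 and 365.1 in RD and 254.1 and 263.87 in JR1. None of the 11 germ cell markers was expressed, 6 were listed at 0 in every library, among them DAZL, SYCP1, TNP1 and PRM1, and their summed TPM was 0.16 and 0.27 in RD and 1.17 and 2.25 in JR1, most of it from TDRD1 in JR1.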

How the data were processed

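The data were the TPM values of 4 poly-A RNA-seq libraries, 1 per line (RD, JR1) and condition (shSCR, shSKP2.2). The authors made directional libraries, read as pairs of 150 bases, and per the labels the processing used STAR 2.7.9a, RSEM 1.3.2 and GRCh38. Each deposited TPM value is given to 2 decimals, and the values of a library add up to 1000000. The gene annotation and the strand setting of the counting are not given in the sources used here. Read numbers cannot be recovered from TPM, and depth, counting error and the precision of a single value are therefore unknown.

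Changes were differences of log2(TPM + 1), shSKP2.2 minus shSCR within a line. Genes whose mean reached 1 TPM were called expressed, and changes of at least 1 were called rises or falls. With 1 library per group no test was run. Shared rises were ordered by whichever line changed less, leaving out short structural RNA genes (2596 by symbol). The genes named were WIPF3, C1orf105, PRR32, SKP2, the other 7 of the 10 largest shared rises and the next, the WIPF and WAS genes, genes of a list past the limit in both lines, the highest and lowest of each list, overlapping and nearest genes, and the 3 most similar profiles per gene. Named outside this rule, after their values were seen, were NCK1, FMNL1, FKBP14, ZNRF2, DNM3OS, CXorf49B and single markers where the rule did not already give them. The genes and lists were chosen with earlier results of these data known. Alternatives were 0.1 TPM in place of 1, centring on the median, removal of the short structural RNA genes with rescaling, a required mean of 5 TPM, inclusion of every gene above 0 TPM and a limit of 1.5-fold. Removal of RMRP and RPPH1 as well was chosen after seeing the data. The steps for changes, calls and ranks were tested on simulated data. There only genes of at least 5 TPM in RD shSCR were raised, and the share of short structural RNAs was not shifted. Control levels as low as those of WIPF3 and PRR32 were thus not covered. Promoter windows came from RefSeq and transcripts from GENCODE release 44. Python 3.11.15, numpy 2.4.6, pandas 2.3.3 and matplotlib 3.10.9 were used.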

Additional observations from a re-analysis of the deposited data

Results flagged for a closer look

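Of the 42 expressed genes that the rule for naming gave, 2 had changes of opposite sign in the lines. WIPF1, the verprolin relative of WIPF3, had changes of -0.32 (RD) and 0.96 (JR1), which differ by 1.29 on the log2 scale of TPM + 1. After removal of the short structural RNA genes its changes were 0.05 and 1.28, no longer of opposite sign. DES, which encodes the muscle intermediate filament desmin, had changes of 0.14 (RD) and -0.50 (JR1), and JR1 minus RD was -0.64. Its changes after that removal were 0.54 and -0.22. CHRNG, named outside that rule, had changes of 0.23 (RD) and -0.08 (JR1), and of 0.62 and 0.19 after that removal. With 1 library per line and condition none of these differences was tested.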

How the results depend on the processing

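WIPF3, C1orf105 and PRR32 rose past the limit in both lines under every alternative. The log2 changes of WIPF3 in RD and JR1 were 3.71 and 5.46 with 0.1 TPM added, 2.79 and 4.04 centred on the median, 3.41 and 4.90 without the short structural RNA genes, and 3.55 and 5.07 without RMRP and RPPH1 as well. In the same order those of C1orf105 were 2.54 and 2.88, 2.52 and 2.94, 2.79 and 3.11, and 2.84 and 3.10. Those of PRR32 were 2.99 and 2.32, 2.82 and 2.01, 3.17 and 2.36, and 3.23 and 2.40.

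The number of expressed genes that rose in RD, in JR1 and in both, 140, 231 and 70 as reported, was 280, 379 and 134 with 0.1 TPM added, 272, 388 and 135 when centred, 554, 694 and 254 without the short structural RNA genes, 669, 747 and 285 without RMRP and RPPH1 as well, 87, 143 and 44 with a minimum mean of 5 TPM, and 416, 691 and 230 with a limit of 1.5-fold. Over all genes above 0 TPM it was 154, 273 and 71, within 1.5 times of the reported counts. The removal of the short structural RNA genes moved the median change to 0.10 in RD and 0.03 in JR1. Among shared rises WIPF3 kept rank 2 to 3, while C1orf105 ranged from 6 to 13 and PRR32 from 9 to 20. A fit over the 4 libraries with the line as a block, which would leave 1 residual degree of freedom, was not run, since the genes were chosen on their changes in both lines, and no alternative replaces a replicate.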
